A study of Mus musculus with 5 samples.

Results

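The stretch of mouse chromosome 15 around Myc and its neighbour Pvt1 was examined in lists of DNase I hypersensitive sites from MycER fibroblasts. Members were all called peaks that overlap chr15:60500000-63500000 of the build mm9, a window of 3 Mb fixed by position and not by any measured value. Peaks that overlapped between lists by at least 1 bp were joined into sites, which gave 65 sites here out of 52181 in the genome. Myc was placed at about 61.817 to 61.822 Mb and Pvt1 at about 61.87 to 62.10 Mb, and distances below are from the start of Myc to the centre of a site, negative on the upstream side. These gene positions are approximate, so promoter assignments rest on them.

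The cells were 3T9 fibroblasts (embryonic fibroblasts immortalised by serial passage) from embryos of mixed strain. All libraries came from cells with floxed c-myc alleles that had been infected in vitro with MycER, in which Myc is joined to the ligand-binding region of the estrogen receptor. In the treated group MycER was activated for 4 h with 400 nM 4-hydroxytamoxifen (4-OHT), and the vehicle group received ethanol (0 h). Each group had 2 libraries, and 1 input of sonicated DNA carried no peak list used here. The labels do not state whether the floxed alleles were still intact, or whether the infected cells were a pool or 1 clone. MycER itself carries Myc coding sequence, so reads from the transgene and from the Myc exons cannot be told apart in a peak list.

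The 4 deposited lists were 3 distinct ones. The list of 4-OHT replicate 1 and that of vehicle replicate 2 hold the same intervals and scores, so this list has no sure label and is called the repeated list. The 4-OHT list (replicate 2) and the vehicle list (replicate 1) have a sure label, at 1 list per treatment, so no comparison below has a replicate check or a p-value, and treatment and replicate cannot be told apart. Genome-wide the 4-OHT list had 47621 peaks, the repeated list 44956 and the vehicle list 35149. The score of a peak is the caller's own value, from 80 to 3233 in each list, with a pile-up at 3100 that will be called the ceiling. It is not a maximum, and the start of Pvt1 scores above it in the repeated list. Read depth is unknown and the lists differ in length, so values are set beside sites of like score elsewhere in the genome. The cell type could not be checked at marker genes, as no gene positions on mm9 were used beyond Myc and Pvt1.

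Myc encodes a basic helix-loop-helix leucine zipper protein that binds E-box DNA as a dimer with Max and drives genes of growth and proliferation. The gene stands in a long stretch with few other protein-coding genes, and tissue-specific enhancers on both sides of it are known to act on its promoter over long distances. Pvt1 is a long noncoding RNA gene just downstream of Myc, known in mouse as a site of retroviral insertion and of chromosome translocation in tumours. In human breast cancer cells the PVT1 promoter is known to compete with MYC for enhancers that lie inside PVT1. In the RefSeq gene order of GRCm38.p6, the nearest protein-coding genes were A1bg and then Lratd2 upstream of Myc, and Gsdmc downstream of Pvt1.

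The 4-OHT list had 54 of the 65 sites, the repeated list 53 and the vehicle list 40. A peak in every list was found at 33 sites (50.8%, Wilson 95% interval 38.9% to 62.5%), against 61.1% of all sites of the genome. A further 11 sites (16.9%, genome 14.1%) were in the 4-OHT and repeated lists. The 4-OHT and vehicle lists shared 2 (3.08%, genome 1.52%), and the repeated and vehicle lists 3 (4.62%, genome 1.18%). The 4-OHT list alone held 8 sites (12.3%, genome 12.3%), the repeated list alone 6 (9.23%, genome 8.53%) and the vehicle list alone 2 (3.08%, genome 1.34%). The genome share of sites in every list lies inside its interval, which covers counting error alone and takes neighbouring sites as independent. For the 3 sites of the repeated and vehicle lists the interval was 1.58% to 12.7%, and the genome share is below it. The intervals of the other classes hold their genome shares. These 3 sites scored only 81.8 to 89.2 in the vehicle list. Sites of 1 list were weak: those of the 4-OHT list scored 80.1 to 128, those of the repeated list 81.0 to 120, and those of the vehicle list 88.9 and 90.

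Locus sites had lower scores than the genome's in each list. Their median score was 223 in the 4-OHT list, 191 in the repeated list and 229 in the vehicle list, where all sites of the genome had medians of 327, 371 and 342 in the same lists. Scores under 200 were found at 48.1% of locus sites in the 4-OHT list, 52.8% in the repeated list and 42.5% in the vehicle list. The genome shares were 36.1%, 33.8% and 35.2% in that order of lists. The called peaks covered 89.2 kb of the window in the 4-OHT list, 85.7 kb in the repeated list and 66.4 kb in the vehicle list.

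**Figure D1:**
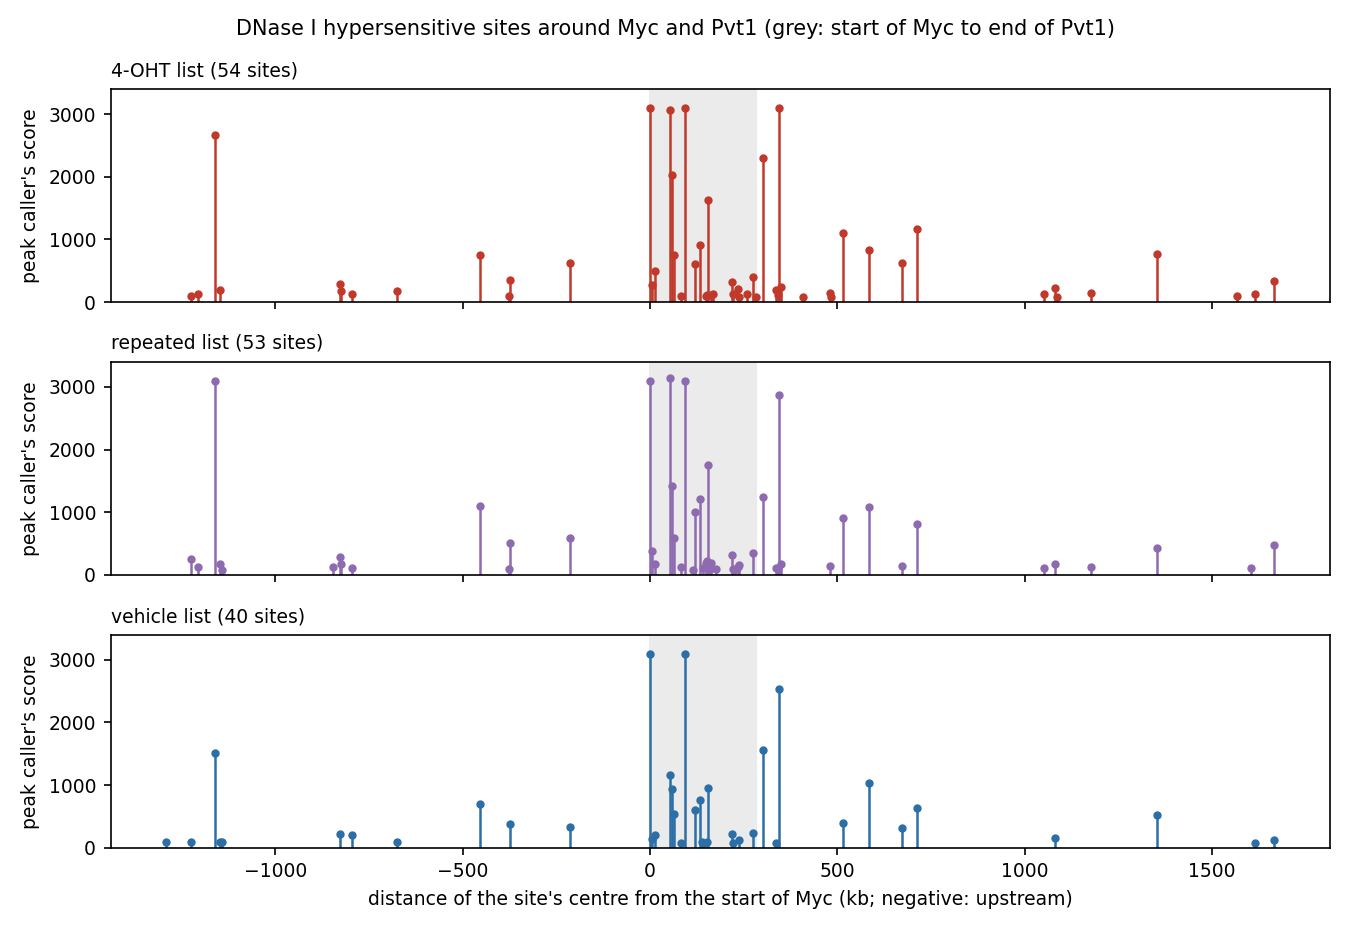
Each line is a site of the window, at the distance of its centre from the start of Myc (kb, horizontal), with its height the caller's score (vertical, linear axis) in the 4-OHT list (54 sites), the repeated list (53 sites) and the vehicle list (40 sites). The tall lines crowd between Myc and about 350 kb downstream, and a single strong site stands at -1162 kb.

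Accessible sites were concentrated on the downstream side. The 500 kb that begin at Myc held 37 of the 65 sites (7.40 per 100 kb), whereas the 500 kb before Myc held 4 (0.800 per 100 kb). No list had a peak in the 211 kb between the site at -214 kb and the site over Myc. From 500 to 1000 kb downstream there were again 4 sites, and all 4 were found in every list. The longest stretch with no peak in any list measured 337 kb, between the sites at 713 kb and 1051 kb. With 65 sites the window was not sparse: of 829 windows of equal length tiled over the genome, 314 held more, and the median was 49.0. Windows with no site were left out of these, and those at chromosome ends can be shorter.

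The Myc promoter and most of the gene lay in 1 broad site that sat at the ceiling in every list. This site spans 61814310 to 61821816 and scored 3100 in the 4-OHT, repeated and vehicle lists alike. In the 4-OHT list it was 1 peak of 7201 bp, from 2.5 kb upstream of the start of Myc to 4.7 kb downstream of it. In the repeated list 3 peaks almost touching each other made up 7485 bp, with scores of 649, 3100 and 116 from upstream to downstream. In the vehicle list it was 1 peak of 5819 bp that ended 3.3 kb downstream of the start, so the called interval was shorter at the 3′ side there.

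A site this wide was rare. Only 0.151% of the sites of the 4-OHT list, 0.138% of those of the repeated list and 0.347% of those of the vehicle list had more called bp. More bp in the 4-OHT than in the vehicle list were called at 21 of the 35 locus sites found in both (60.0%), and at 68.6% of such sites over the genome, so the longer interval over Myc went the way most sites did. With the same piled-up score in every list, a difference in accessibility at the Myc promoter could not be read from the score. A score at or above the ceiling in all lists was found at 2 of the 65 sites (3.08%) and at 5.23% of all sites.

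Just past the end of Myc, a weaker site at 61821930 to 61824329 (6 kb from the start) was present in every list. It scored 272 in the 4-OHT list, 380 in the repeated list and 148 in the vehicle list. The vehicle score was close to 151, the median vehicle score of 2036 genome sites. These had a vehicle peak and a 4-OHT score within 10% of 272. Between Myc and Pvt1 there was 1 more site, at 14 kb (61829940 to 61831780). It scored 503 in the 4-OHT list, 177 in the repeated list and 199 in the vehicle list, so here the repeated list stood with the vehicle list. Genome sites with a 4-OHT score like this had a middle 90% of vehicle scores from 128 to 517, which holds the 199.

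Of the sites scoring 500 or more, the start of Pvt1 was the 1 with a vehicle score under the usual range for its 4-OHT score. It lies at 61868287 to 61871839, 53 kb from Myc, and was 1 peak in each list. Its score was 3058 in the 4-OHT list, 3143 in the repeated list and 1159 in the vehicle list, so the repeated list stood with the 4-OHT list. Widths were closer, at 3513 bp, 2927 bp and 3553 bp in that order of lists. The site outscored 89.2% of the sites of the 4-OHT list and 74.9% of those of the vehicle list, counting ties at their middle.

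Set beside the 823 genome sites with a 4-OHT score within 10% of 3058 and below the ceiling, the Pvt1 start was just outside their usual range. Those sites had a median vehicle score of 1886 and a middle 90% from 1199 to 2711, and 1159 is below it. Matched the other way, the 1296 genome sites with a vehicle score within 10% of 1159 had a median 4-OHT score of 1843 and a middle 90% from 1161 to 2803, and 3058 is above it. By construction 10% of genome sites fall outside such a range. The verdict depended on the sites chosen for comparison. Among sites below the ceiling within 20% of 3058 the range began at 1106, which holds 1159. With sites at the ceiling kept in, the range began at 1561 within 10% and at 1346 within 20%, both above 1159. On the log2 scale the score was 1.4 higher in the 4-OHT list, against a median of 0.61 over all 32664 sites shared by these lists.

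Inside Pvt1 the sites were dense. The 230 kb of the gene overlapped 26 sites (11.3 per 100 kb, against 2.17 per 100 kb for the whole window), of which 12 were in every list. The 4-OHT list had 19 of these sites with 36.0 kb of called sequence, the repeated list 21 with 37.5 kb, and the vehicle list 15 with 27.9 kb. The strongest past its start was a site at 94 kb (61910045 to 61912597), at 3100 in the 4-OHT, repeated and vehicle lists, the other site of the window at the ceiling throughout. It was 2374 bp wide in the 4-OHT list, 2294 bp in the repeated list and 2553 bp in the vehicle list.

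A row of strong sites followed the Pvt1 start within the gene. The site at 59 kb (61874420 to 61876791) scored 2035 in the 4-OHT list, 1426 in the repeated list and 937 in the vehicle list. The site at 64 kb scored 750, 589 and 541 in these lists, in the same order. Further in, the site at 133 kb (61949092 to 61951851) scored 906 in the 4-OHT list, 1211 in the repeated list and 766 in the vehicle list.

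The strongest site of the middle of Pvt1 after the one at 94 kb was at 154 kb (61969918 to 61971937), with 1627 in the 4-OHT list, 1751 in the repeated list and 951 in the vehicle list. At 120 kb the 4-OHT list called 1 peak of 3268 bp (604) where the repeated list (1003) and the vehicle list (608) each called 2. At each of these 5 sites the vehicle score was inside the middle 90% of genome sites with a like 4-OHT score. In the second part of the gene scores were lower: the highest was that at 276 kb, with 403 in the 4-OHT list, 350 in the repeated list and 235 in the vehicle list.

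**Figure D2:**
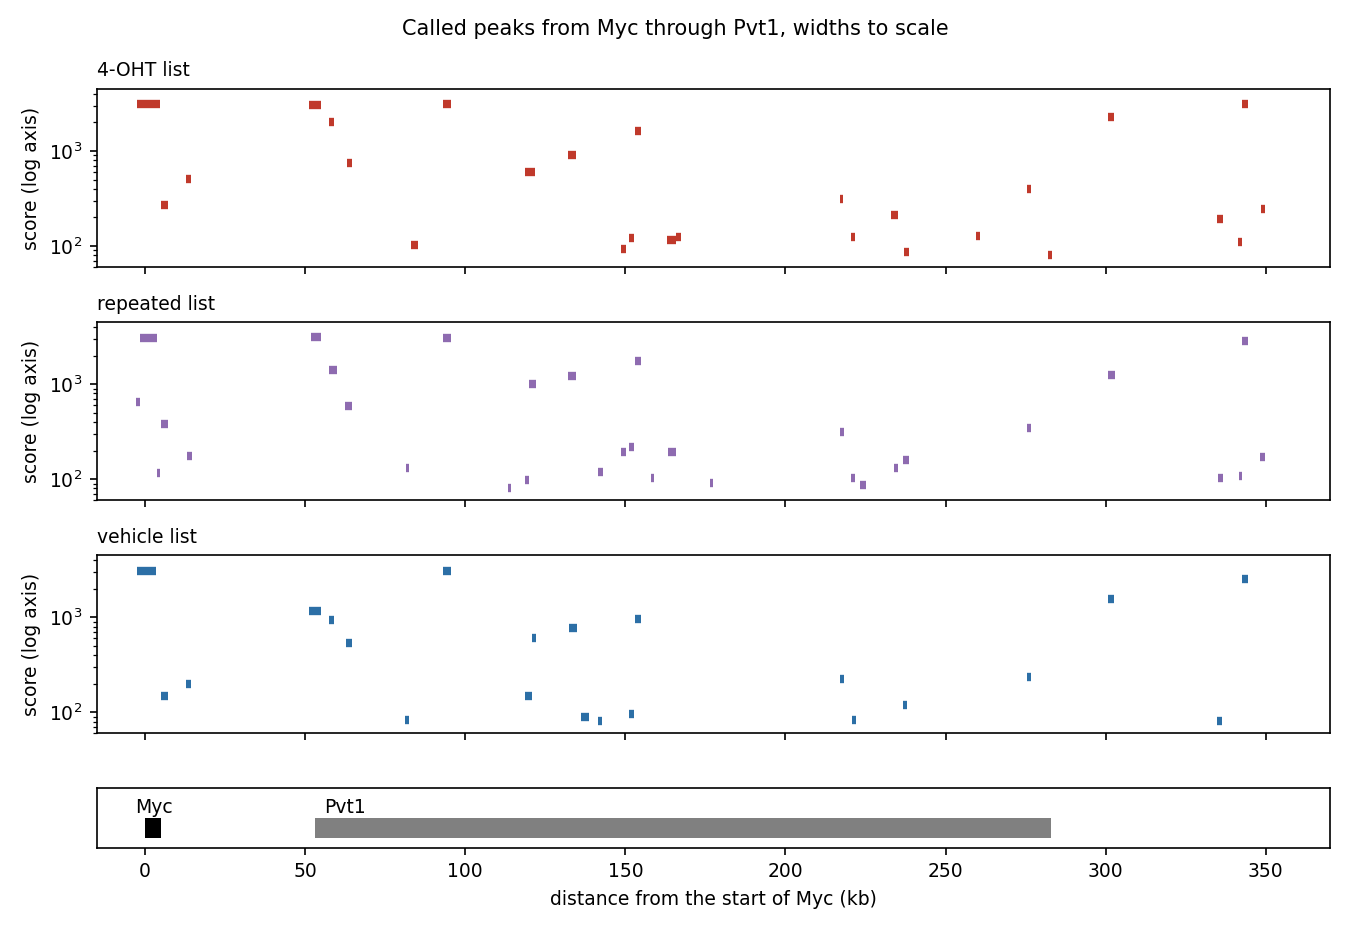
Called peaks from Myc to past the end of Pvt1 in the 4-OHT, repeated and vehicle lists, each drawn as a bar as long as the peak (horizontal, kb from the start of Myc) at the height of its score (vertical, log axis), over the approximate extents of both genes. The Myc peak and the peak at 94 kb sit at 3100 in each list, while the peak at the Pvt1 start sits at 3058 in the 4-OHT list, 3143 in the repeated list and 1159 in the vehicle list.

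Beyond the end of Pvt1 came a pair of strong sites. The first, at 302 kb (62117902 to 62120008), scored 2298 in the 4-OHT list, 1238 in the repeated list and 1562 in the vehicle list. The other, at 344 kb (62159591 to 62161419), scored 3100 in the 4-OHT list, 2867 in the repeated list and 2531 in the vehicle list. At both sites the repeated list scored below the 4-OHT list: 1238 was under the middle 90% of repeated-list scores (1741 to 3125) at genome sites with a 4-OHT score like 2298.

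From 500 to 1000 kb downstream of Myc the 4 sites were of moderate strength. At 584 kb (62400276 to 62401755) the score was 831 in the 4-OHT list, 1092 in the repeated list and 1031 in the vehicle list. It was the 1 site scoring 500 or more in the 4-OHT list whose vehicle score was above the usual range: genome sites of that 4-OHT score had a median vehicle score of 466 and a middle 90% from 237 to 823. The site at 713 kb (62529563 to 62531009) scored 1168 in the 4-OHT list, 819 in the repeated list and 630 in the vehicle list, near the genome median of 682 for its 4-OHT score.

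The other two of these sites differed more between lists. The site at 516 kb scored 1104 in the 4-OHT list, 906 in the repeated list and 404 in the vehicle list. This was the largest score ratio of the locus between the 4-OHT and vehicle lists (1.45 on the log2 scale). Its vehicle score was still inside the middle 90% (334 to 1073) of genome sites with a 4-OHT score like this. At 673 kb the scores were 626 in the 4-OHT list, 137 in the repeated list and 317 in the vehicle list. Here the repeated list was the lowest, and 137 was below the middle 90% (312 to 1299) of repeated-list scores at sites with a 4-OHT score like this.

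From 1000 kb downstream to the edge of the window, scores were mostly low. The site at 1355 kb, with 775 in the 4-OHT list, 425 in the repeated list and 525 in the vehicle list, was the strongest in the 4-OHT and vehicle lists. The last site, at 1667 kb, the strongest in the repeated list, scored 333 in the 4-OHT list, 486 in the repeated list and 130 in the vehicle list. The downstream stretch as a whole had 21 sites, of which the 4-OHT list held 20, the repeated list 16 and the vehicle list 11.

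The 1317 kb upstream of Myc held 15 sites, 8 of them in every list. The strongest, at -1162 kb (60653449 to 60657133), scored 2672 in the 4-OHT list, 3100 in the repeated list and 1515 in the vehicle list, with widths of 3426 bp, 3273 bp and 3212 bp in that order. Which gene this site belongs to was not assigned. The site at -453 kb (61362882 to 61365236) scored 750 in the 4-OHT list, 1097 in the repeated list and 704 in the vehicle list. The site at -214 kb scored 618 in the 4-OHT list, 595 in the repeated list and 334 in the vehicle list, and the other 12 upstream sites scored 518 or less in every list.

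No vehicle peak was called at 19 of the 54 sites of the 4-OHT list, 35.2% (23.8% to 48.5%), against 29.6% over the genome. These were weak peaks, with a median 4-OHT score of 116, and the genome's sites of this kind had a median of 119. By score, 7 of 9 sites scoring 80 to 100 lacked a vehicle peak (genome 86.9%), and 10 of 17 scoring 100 to 200 (genome 64.5%). The band from 200 to 500 had 2 of 9 (22.2%, genome 16.4%). No site lacked one of 9 scoring 500 to 1000 and of 10 scoring 1000 or more, counts of 0 that allow shares of up to 33.3% and 30.0% (3 counts of the total). Had each of the 54 sites been missing at the rate of genome sites within 10% of its score, 20.6 would have been, and 19 were. A stricter count asked for a peak in all lists of 4-OHT and in none of vehicle. It was 11 with the repeated list counted as 4-OHT and 8 with it counted as vehicle. These were 16.9% and 12.3% of all 65 sites, against 14.1% and 12.3% of the genome's. With the lists at equal length the count was 4 (12.1%, genome 12.5%).

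The first 2 of these 19 sites by score lay in Pvt1 or downstream of it. At 349 kb (62165307 to 62166731) the 4-OHT score was 245 and the repeated-list score 172, and 27.5% of genome sites with a 4-OHT score like this had no vehicle peak. At 234 kb, inside Pvt1 (62050031 to 62052264), these scores were 213 and 130. The next was upstream, at -826 kb, with 178 in the 4-OHT list and 168 in the repeated list, followed by the site at 1178 kb with 148 and 125 in these lists.

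The others among the first 10 had 4-OHT scores from 116 to 144. Those at 480 kb, -1206 kb, 1051 kb and 164 kb had a peak in the repeated list too, with scores of 136, 134, 108 and 195. The sites at 260 kb and 167 kb, both inside Pvt1, were in the 4-OHT list alone, at 128 and 126. By stretch, 7 of the 19 overlapped Pvt1, 9 were downstream of it and 3 were upstream of Myc. In that order, these stretches held 19, 20 and 12 sites of the 4-OHT list.

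Conversely, 5 of the 40 vehicle sites were missing from the 4-OHT list, 12.5% (5.46% to 26.1%), against 3.87% over the genome. All 5 scored under 100 in the vehicle list, and the band from 80 to 100 held 11 of its locus sites, so 5 of 11 (45.5%, 21.3% to 72.0%) were missing there against 22.6% of genome sites in that band. Of the 29 vehicle sites of 100 or more none was missing, a count of 0 that by the same rule allows up to 37.5% to 50.0% in single score bands. Of 552 windows of equal length with at least 20 vehicle sites, 14 had a larger share missing than this one, a count that does not match scores. At the rate of genome sites of like vehicle score, 3.0 of the 40 would have been missing, and 5 were. The stricter count, in all lists of vehicle and in none of 4-OHT, was 2 with the repeated list counted as 4-OHT and 3 with it counted as vehicle. These were 3.08% and 4.62% of all 65 sites, against 1.34% and 1.18% of the genome's. With the lists at equal length the count was 11 (27.5%, genome 11.5%). This trimming took weak peaks from the 4-OHT list and none from the vehicle list, and scores were not matched. The band from 80 to 100 held 11 of the 40 locus vehicle sites, and 3420 of 33979 over the genome.

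These 5 sites were close to the lowest score in the lists. Those at 138 kb (61953212 to 61955836, score 90) and -1292 kb (88.9) were in the vehicle list alone. Those at -1144 kb, 82 kb and 142 kb scored 89.2, 82.3 and 81.8 in the vehicle list and had a peak in the repeated list, of 86.2, 130 and 119. Inside Pvt1 lay 3 of the 5, and just past the one at 82 kb, at 84 kb, the 4-OHT list had a weak peak of its own (102).

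**Figure D3:**
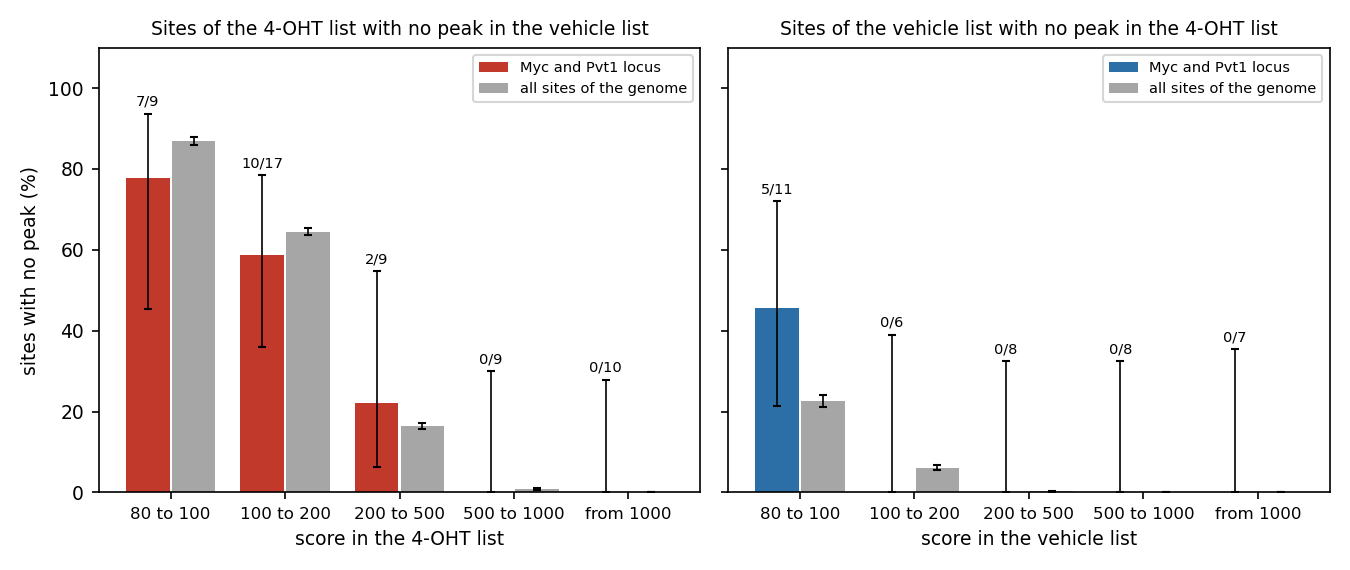
Bars give the share of sites (percent, vertical) with no peak in the other list, by score band (horizontal), for the Myc and Pvt1 locus (coloured, with counts) and for all sites of the genome (grey), and lines are Wilson 95% intervals. On the left, the locus shares fall with score as the genome's do, and on the right 5 of 11 weak vehicle sites of the locus lacked a 4-OHT peak, where the genome share was 22.6%.

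At the 35 sites found in both lists, the score was higher in the 4-OHT list at 27, lower at 6 and equal at 2. The genome shares were 83.3% higher and 8.94% lower. The median log2 ratio of scores was 0.56 at the locus and 0.61 over the genome, and single sites ranged from -0.73 to 1.45. Ranked within each list, locus sites stood a median of 10.4 percentile points higher in the 4-OHT than in the vehicle list, against 9.3 points for all shared sites. With the lists at equal length this difference turned to -0.9 points at the locus, with -0.1 over the genome. It was 6.9 points (genome 8.9) with the repeated list counted as 4-OHT and 7.3 (genome 5.1) with it counted as vehicle, so whether the locus or the genome had the larger difference turned with that label.

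Of the 33 sites in every list, the 4-OHT list had the highest score at 16, the repeated list at 14 and the vehicle list at 1, with 2 tied at the ceiling. Over the genome these shares were 31.8%, 51.7% and 2.86%. The 1 site with its highest score in the vehicle list was at -796 kb (61020699 to 61021814), with 126 in the 4-OHT list, 116 in the repeated list and 209 in the vehicle list.

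With scores matched, 29 of the 35 shared sites had a vehicle score inside the middle 90% of genome sites of like 4-OHT score. Only genome sites with a peak in both lists entered these ranges. The 6 outside were 17.1% of the 35, where 10% is given by construction. So few sites, with no test run, do not show an excess at the locus. Matched on the vehicle score instead, 31 of the 35 had a 4-OHT score inside the range, with the Pvt1 start above it and the sites at -796 kb, 238 kb and 584 kb below it. In the first matching, above the range were the sites at -796 kb (209, range to 200), at -375 kb (376, range to 359) and at 584 kb (1031, range to 823). Below it were the Pvt1 start (1159, range from 1199), the site at 336 kb (80.8, range from 83.9) and the site at 1616 kb (80.6, range from 82.2). Both of the last are at the lowest scores the lists hold. Of all genome sites with a 4-OHT score like theirs, 43.6% for 336 kb and 70.8% for 1616 kb had no vehicle peak. So both were low only among sites with a vehicle peak. At 14 of the 35 the vehicle score was over the median of genome sites with like 4-OHT score.

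**Figure D4:**
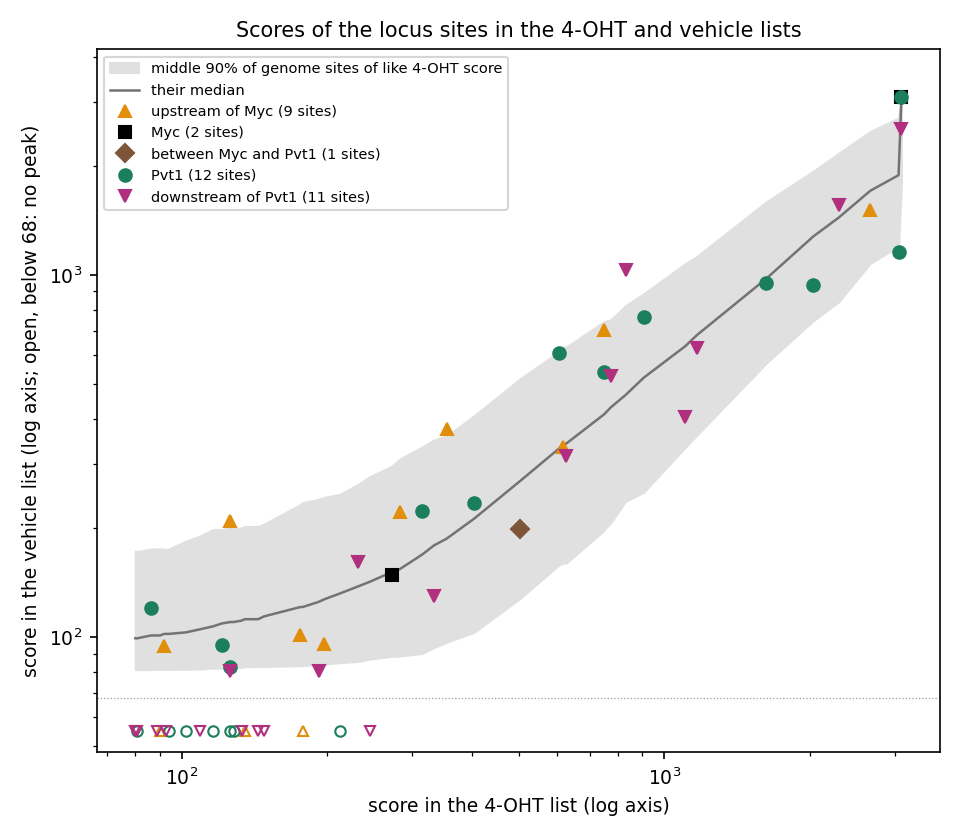
Each filled symbol is a locus site with its score in the 4-OHT list (horizontal, log axis) and in the vehicle list (vertical, log axis), and open symbols under the dotted line are 4-OHT sites with no vehicle peak. The grey band is the middle 90% of vehicle scores of genome sites that have a vehicle peak and a 4-OHT score within 10%. Sites at the ceiling are matched only to each other. Of the 35 filled symbols 29 are inside the band, with the Pvt1 start (3058 and 1159) just under it.

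The largest rank differences between these lists were mostly at weak sites. The site at 336 kb (62151866 to 62153815) stood 34.5 percentile points higher in the 4-OHT list, with scores of 192 in the 4-OHT list, 104 in the repeated list and 80.8 in the vehicle list. The last site of the window, at 1667 kb, stood 30.3 points higher, that at -1147 kb 27.4 points (197 in the 4-OHT list, 174 in the repeated list and 95.8 in the vehicle list), that at 14 kb 24.9 points and that at -676 kb 21.7 points.

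In the other direction, the site at -796 kb had a rank difference of -16.6 points, and the site at 238 kb, inside Pvt1, one of -13.5 points, with 86.3 in the 4-OHT list, 159 in the repeated list and 120 in the vehicle list. The site at 584 kb followed at -3.6 points. The Myc site and the site at 94 kb came next at -1.3 points, a value set by how many sites of each list share the ceiling.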

How the data were processed

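The deposited files were 4 peak lists with a score per peak, and the score is the authors' peak caller's own value. The submitters' processing notes name BWA 0.6.2, SAMtools, MACS 1.4.1 and mm9, while their settings and any use of the input were not known here. In MACS output such a column is a log-scaled p-value, but no header says so here.

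Peaks of the 3 distinct lists were merged at 1 bp overlap, with the site score the highest peak score in a list. Same-score sites were genome sites outside the window within 10% of a score. At the ceiling they were all sites from 3100, which bands below it leave out. Their median and 5 to 95 percentile range cover only those with a peak in the compared list. Wilson 95% intervals were taken for shares of list classes and of missing peaks, and limits on counts of 0 are 3 counts of the total. The window, members, groupings and comparisons were chosen with earlier results of these data known. Sites named were those over Myc and the Pvt1 start, the 10 others with the highest lowest score, up to 10 each way missing from a list of sure label, and the 5 largest rank differences each way; the others named were chosen after their values were seen. Planned promoter comparisons of other genes needed mm9 annotation and were not run. Nothing says whether libraries came from separate cultures. Alternatives were equal list length, a score of 100, merging within 500 bp, 50% overlap, summed scores, the ceiling left out and each library left out. The script was checked on 20000 simulated sites (100% put in their class) and against bedtools 2.31.1. Python 3.11.15, numpy 2.4.6, scipy 1.17.1 and matplotlib 3.10.9 were used.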

Additional observations from a re-analysis of the deposited data

How the results depend on the processing

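No paired analysis was possible because each treatment has 1 list of sure label and no test was run. Equal list length (each list trimmed from the bottom by score to the vehicle list's number of peaks) left 33 locus sites in the 4-OHT list, 33 in the repeated list and 40 in the vehicle list. It left 4 4-OHT sites without a vehicle peak (12.1%, genome 12.5%) in place of 19. Vehicle sites without a 4-OHT peak were 11 (27.5%, genome 11.5%) in place of 5. The rank difference turned to -0.9, since the weakest peaks of the longer lists are left out. The vehicle list loses no peaks, and these shares were not matched by score. A score of 100 for presence only left 12 4-OHT sites without a vehicle peak and 0 vehicle sites without a 4-OHT peak. Genome shares for these are given above by score band. Peaks under 100 dropped from all lists left 17 of 45 4-OHT sites without a vehicle peak (37.8%, genome 28.5%). They left 1 of 29 vehicle sites without a 4-OHT peak (3.45%, genome 2.87%). The median rank difference was 9.3 (genome 9.6) with a score of 100 and 8.4 (genome 9.1) with merging within 500 bp. Without sites at the ceiling it was 11.0 (genome 11.0), and the median log2 score ratio was 0.56 (genome 0.61). The locus was not above the genome in any of these. Summing peak scores raised the Myc site to 3865 in the repeated list and moved nothing at the Pvt1 start.

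Leaving out each library gave stricter counts, in all lists of a treatment and none of the other. They were 0 to 11 for 4-OHT sites (11 with the repeated list counted as 4-OHT, 8 with it counted as vehicle). For vehicle sites they were 0 to 3 (2 and 3 under those labels). The rank difference was 6.9 (genome 8.9) and 7.3 points (genome 5.1) under those labels. With the repeated list on both sides it was 1.8 (genome 1.1) and 2.8 (genome 4.2), values made smaller by construction. The 0s are forced where the repeated list stands on both sides. Sites in all lists then numbered 33 to 44. Chosen after seeing the data, merging without the repeated list left 19, 5 and 10.4 as they were, and a score band of 20% left 5 shared sites outside the range in place of 6, with the Pvt1 start the one moved inside. With sites at the ceiling kept in the band 6 were outside at either width, the Pvt1 start included. Depth is unknown, so no peak in a list says that none was detected, not that the site was inaccessible.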
